A study of Ovis aries with 26 samples.

Results

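The macrophages of the fetal and newborn sheep pancreas described here were 614 cell barcodes out of 79510 kept barcodes (0.772%) of 109501 deposited. A barcode was kept with over 200 and under 6000 genes detected and under 25% of its unique molecular identifiers (UMIs, each counting 1 captured mRNA molecule) from mitochondrial genes. A kept barcode counted as a macrophage when it held at least 1 UMI each of 2 or more of C1QA, C1QB and C1QC, the 3 chains of complement component C1q, and no UMI of CD3E (T cells), CD79B (B cells) or PECAM1 (endothelium). The cells were thus selected on measured C1q UMIs, whose values below are a description with no test.

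Macrophages are phagocytes that settle in organs before birth, first from the yolk sac and then from fetal liver monocytes, and in many tissues maintain themselves by dividing in place. They clear dying cells, take up lipid and iron, present antigen, and secrete matrix proteins, chemokines and growth factors. In most tissues they are a main source of C1q, which binds to apoptotic cells and immune complexes and starts the classical complement pathway. Macrophages are also known to lie close to forming ducts and islets in the developing pancreas.

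Single-cell libraries were made from the pancreas of 23 American Romney sheep, at 80 or 120 days of gestation or at birth (term). Wild type (WT) groups, all naturally bred, held 4 male fetuses at 80 days (fetuses 2 and 4 were labelled heterozygous for CFTR), 3 fetuses at 120 days (fetus 2 female) and 4 lambs at term (lamb 3 female). CFTR-/- (CF) groups held 3 cloned male fetuses at 80 days, 4 cloned male fetuses and 2 naturally bred female fetuses at 120 days, and 3 lambs at term, of which lambs 1 and 2 were naturally bred females and lamb 3 was a cloned male. All clones came from 1 male CFTR-/- neonatal fibroblast line, so cloned animals were not independent genotypes, and the natural CF lambs came from matings of CFTR+/- parents. In the CF term comparison with 80 days, breeding and sex changed together with age in lambs 1 and 2 and not in lamb 3. CFTR itself gave no check of the labels, because 3′ counts do not read the targeted 5′ exon; in the other kept barcodes it lay between 7.69 and 52.0 CPM (counts scaled to the same total UMIs, 1e6, in every sample) in 11 WT animals and between 15.9 and 167 CPM in 12 CF animals.

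The 26 libraries held between 7841217 and 171256169 UMIs, and an animal gave between 943 and 9543 kept barcodes. Macrophages were found in 21 of 23 animals, but 17 animals had 5 or more and only 11 had 20 or more. No macrophage barcode sequence occurred in more than 1 library, against 824 of 78681 different sequences among all kept barcodes. Replicates are separate animals, but WT fetuses 2 to 4 at 80 days were littermates, and so were the natural CF fetuses 5 and 6 at 120 days. By the animal numbers of the study, CF fetuses 2 and 3 at 80 days, cloned CF fetuses 2 and 3 at 120 days, and WT fetuses 1 and 2 at 120 days each also shared a pregnancy. The WT 80-day animals with 5 or more macrophages were thus 1 litter, and p-values that rest on these animals do not cover the spread between pregnancies. Where an animal had a pair of libraries these were summed for gene levels and averaged for cell shares.

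The label held up on markers that had not chosen the cells. Among the 614 macrophages, 88.1% had a UMI of TYROBP and 76.7% of FCER1G, signalling adaptors of phagocyte receptors, 74.6% had CSF1R, the receptor for macrophage growth factor, and 85.8% had AIF1. Over all kept barcodes the same 4 genes were detected in 3.34%, 4.80%, 2.04% and 4.38%. The scavenger receptors MRC1 and CD163 were found in 57.8% and 42.8% of macrophages, TIMD4, a receptor for dying cells typical of long-lived resident macrophages, in 46.1%, and SPP1 (osteopontin) in 28.0%. The endothelial gene CDH5 was found in 0.814% and the collagen gene COL1A1 in 8.47%. A doublet caller marked 4.72% of macrophages and 3.17% of kept barcodes. Macrophages had a median of 6337 UMIs, ranging from 510 to 81728.

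At the edge of the rule, the 88 macrophages with just 2 C1q genes had a median of 2136 UMIs and TYROBP in 56.8%, while the 526 with all 3 had a median of 6926 UMIs and TYROBP in 93.3%. Just outside it, 876 barcodes with 1 C1q gene had TYROBP in 5.71% and CSF1R in 3.42%, and 14.0% of their UMIs came from acinar genes. In 61 macrophages fewer than 2 of the 4 phagocyte genes TYROBP, FCER1G, CSF1R and AIF1 were detected. Their median depth was 1869 UMIs, and acinar genes made up 12.9% of their UMIs.

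The exclusion genes removed slightly more C1q-positive barcodes than the rule kept. Of the barcodes with 2 or more C1q genes, 631 (50.7%) were left out, 627 of them for PECAM1, and 98.4% of these had TYROBP, 94.3% CSF1R and 2.38% CDH5. PECAM1 is also made by myeloid cells, and these 631 barcodes were deeper than the macrophages, with a median of 12163 UMIs. Pooled over animals, their make-up differed as well. Inflammatory genes made up 3.36% of their UMIs against 2.32% in macrophages, and iron and heme genes 3.06% against 1.81%. Antigen presentation genes were at 0.802% against 0.882%. The share removed ran from 19.7% in the natural CF fetuses at 120 days to 62.6% in WT lambs. It was 39.9% in CF fetuses at 80 days and 56.9% in CF lambs. Gene levels and gene lists below describe only the macrophages that the rule kept. Mean shares of the groups tested are therefore also given below with the exclusion genes ignored.

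The widest gap in macrophage share between the genotypes was at term. Macrophages made up 0.607%, 3.56% and 1.24% of the kept barcodes of CF lambs 1, 2 and 3, and 0.0924%, 0.314%, 0% and 0.299% of those of WT lambs 1 to 4. All CF lambs lay above all WT lambs. The means were 1.80% ± 1.55 (SD, n = 3) and 0.176% ± 0.155 (SD, n = 4), a difference of 1.62 percentage points with p = 0.0286 in a two-sided exact permutation test, the smallest p that 3 against 4 animals allow. After Benjamini-Hochberg adjustment over the 8 share comparisons the exact p was 0.114. With the exclusion genes ignored the means were 3.55% ± 2.26 and 0.413% ± 0.408, with the same exact p of 0.0286. CF lamb 2 carried much of the difference, which was 0.746 points without it. As a share of barcodes that had a UMI of the leukocyte gene PTPRC or were macrophages, the difference was 16.6 points with an exact p of 0.0571.

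At 80 days the shares of CF and WT fetuses overlapped. CF fetuses 1 to 3 had 1.93%, 1.05% and 1.26% macrophages, and WT fetuses 1 to 4 had 0.117%, 0.716%, 1.04% and 1.84%. The mean difference of 0.485 points gave p = 0.314 (two-sided exact permutation test, smallest possible 0.0286). With the exclusion genes ignored the means were 2.32% in CF and 1.98% in WT (exact permutation p = 0.743). At 120 days the cloned CF fetuses had 0.708%, 0.793%, 0% and 0.0379%, the natural CF fetuses 5 and 6 had 0.948% and 0.557%, and the WT fetuses had 0.229%, 0.0514% and 0.421%. Cloned CF and WT fetuses overlapped at that age as well (difference 0.151 points, exact p = 0.543). With the exclusion genes ignored their means were 0.756% and 0.409% (exact permutation p = 0.429). Both natural CF fetuses lay above the 3 WT fetuses, a pair too few for a test to pass 0.05. The mean of the CF minus WT differences over the 3 ages, with clones at 120 days, was 0.753 points (p = 0.0144 in a permutation test within ages over 42875 regroupings, 0.114 adjusted over the 8 comparisons).

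The animals without a macrophage set only weak limits. Cloned CF fetus 3 at 120 days had 0 of 943 kept barcodes, which allows a share of up to 0.318% at a floor of 3 counts, and WT lamb 3 had 0 of 3247, which allows up to 0.0924%. The two-sided 95% Clopper-Pearson intervals in the plot of shares reach 0.390% and 0.114% for these animals. These limits and intervals cover counting error only.

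**Figure D1:**
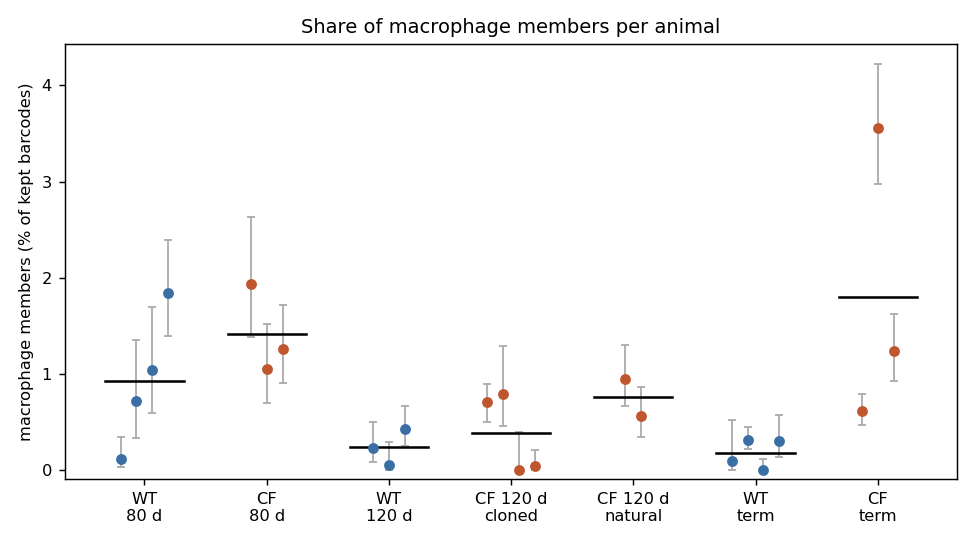
Macrophages as a percent of kept barcodes in each of the 23 animals, by group. Points are animals, bars are 95% exact (Clopper-Pearson) intervals from the counted barcodes, and black lines are group means; all 3 CF lambs at term, from 0.607% to 3.56%, lie above the 4 WT lambs, while the CF and WT fetuses overlap at 80 days.

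With age, the WT mean was 0.929% ± 0.719 at 80 days (n = 4), 0.234% ± 0.185 at 120 days (n = 3) and 0.176% ± 0.155 at term (n = 4). WT animals overlapped between 80 days and term, and none of the WT steps passed the test (exact permutation p = 0.171 for 120 against 80 days, 0.686 for term against 120 days and 0.0857 for term against 80 days). In CF the means were 1.41% ± 0.461 at 80 days and 1.80% ± 1.55 at term, which differed by less than the spread between lambs (exact p = 0.900, smallest possible 0.100). The difference between the CF and the WT change from 80 days to term was 1.14 points (exact permutation p = 0.341). The genotypes were thus not shown to change differently. With the exclusion genes ignored the WT means were 1.98% at 80 days, 0.409% at 120 days and 0.413% at term. The CF means were then 2.32% at 80 days and 3.55% at term. No change with age passed the test there either (exact permutation p of 0.0857 or more).

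The levels of the C1q genes themselves, which chose the cells, were of the same order at every age. Summed over the macrophages of each animal with at least 5, C1QA ranged from 1701 to 4058 CPM at 80 days, from 1841 to 4330 at 120 days and from 1907 to 9192 at term. C1QC ranged from 2283 to 4814, from 2203 to 6469 and from 2033 to 12626 CPM. The highest value of each was that of WT lamb 4, which had 9 macrophages.

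For the comparison of CF with WT macrophages, counts were summed per animal and tested with edgeR's quasi-likelihood test, with p-values adjusted over all genes by the Benjamini-Hochberg method. Genes are called at an adjusted p of at most 0.05. At least 20 macrophages per animal were asked for. This left 11 animals, with 1 from the WT group at 80 days and 1 at term. The animal at 80 days was fetus 4, labelled heterozygous for CFTR, so no fetus labelled WT entered the 80-day comparison. The spread of these single animals is assumed to be that of the other groups. No gene passed of 6475 tested at 80 days (0%; 176 had an unadjusted p under 0.05, and DESeq2 called 10) or at term (0%; 560 under 0.05, and DESeq2 called 1). The difference between the term and the 80-day genotype effect was called for no gene either (415 under 0.05, 0 by DESeq2). At 120 days no WT fetus had 20 macrophages. With at least 5 macrophages, a minimum chosen after seeing the data that left 17 animals and 4082 genes, edgeR called no gene between cloned CF and WT fetuses (0%; 269 at an unadjusted p under 0.05, and DESeq2 called 1) and none for the mean genotype effect (0%; 250 under 0.05, and DESeq2 called 7). At that minimum 3 genes were called at 80 days, HSPA1A, BAG3 and DNAJA4, all higher in CF, and 2 at term, CD36 higher and CXCL10 lower in CF, the latter resting on WT lamb 4.

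The most genes were called between macrophages of CF lambs and of CF fetuses at 80 days. Only this comparison had 3 animals with at least 20 macrophages on each side, so the counts do not rank the sizes of the differences. Of 6475 genes, 175 were called (2.70%), with 96 higher at term (1.48%) and 79 lower (1.22%). This compared 57, 126 and 51 macrophages of lambs 1 to 3 with 39, 28 and 40 of fetuses 1 to 3, at median depths per animal between 5636 and 8617 UMIs at term and between 6956 and 9349 at 80 days. The animals did not overlap for 171 of the 175 genes, against 22.3% of all tested genes. Leaving out any 1 of the 6 animals gave between 46 calls (without fetus 2) and 345 (without lamb 1). With sex as a covariate 28 genes were called, 27 of them higher. Within the groups of that fit sex differed only among the CF lambs. The adjusted change was thus that of lamb 3, the cloned male, against the fetuses, and is no adjustment over 3 lambs. Without the cloned lamb 116 genes were called. None of the 175 genes turned its direction in the alternatives that tested it.

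SPP1, a secreted matrix protein that binds integrins and CD44, fell most among the macrophage genes. It stood at 29383, 7280 and 6868 CPM in CF fetuses 1 to 3 at 80 days and at 10.9, 195 and 29.6 CPM in CF lambs 1 to 3, a log2 fold change of -7.43 ± 1.30 (SE; edgeR adjusted p = 0.0158). The lowest fetus was far above the highest lamb. All other kept barcodes of these animals averaged 191 CPM at 80 days and 9.70 CPM at term, and the macrophages of these groups averaged 14511 and 78.5 CPM, above the other barcodes at both ages. At 120 days it was uneven, with 1120 and 10451 CPM in cloned CF fetuses 1 and 2, 375 and 3553 in natural CF fetuses 5 and 6, and 1700 and 3094 in WT fetuses 1 and 3.

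CD163, which binds hemoglobin and haptoglobin complexes, was at 74.1, 68.1 and 62.6 CPM at 80 days and at 627, 846 and 915 CPM at term (log2 fold change 3.70 ± 0.36, adjusted p = 0.00136). MARCO, a scavenger receptor for bacteria and particles, was at 0 in all 3 fetuses and at 115, 74.6 and 85.5 CPM in the lambs, at least 24.8-fold higher against a floor of 3 UMIs over the group (adjusted p = 0.0104). ASGR1, a lectin subunit better known from hepatocytes, was likewise at 0 and then at 46.5, 182 and 220 CPM, at least 46.5-fold higher (adjusted p = 0.00412). No lamb overlapped a fetus for these 3 genes, as for 22.3% of all tested genes. MARCO and ASGR1 were named by a rule that required this. MSR1, the class A scavenger receptor, rose from 119, 94.6 and 232 to 334, 569 and 770 CPM (2.05 ± 0.37, adjusted p = 0.0189). SIGLEC1, a sialic acid receptor of resident macrophages, went the other way, from 225, 106 and 121 to 10.9, 7.65 and 42.8 CPM (adjusted p = 0.0366). The gene lists were chosen with earlier results of these data known, so their counts and medians, here and below, are a description. Of the 15 tested genes on the list of resident and scavenger genes 2 rose, 1 fell and 12 were not called. Over all tested genes 1.48% were called higher and 1.22% lower. The median log2 change was -0.22 on the list and 0.00 over all tested genes. The resident marker TIMD4 (-0.56, adjusted p = 0.349), the hyaluronan receptor LYVE1 (1.86, adjusted p = 0.120) and MRC1 (0.50, adjusted p = 0.436) were among those not called.

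**Figure D2:**
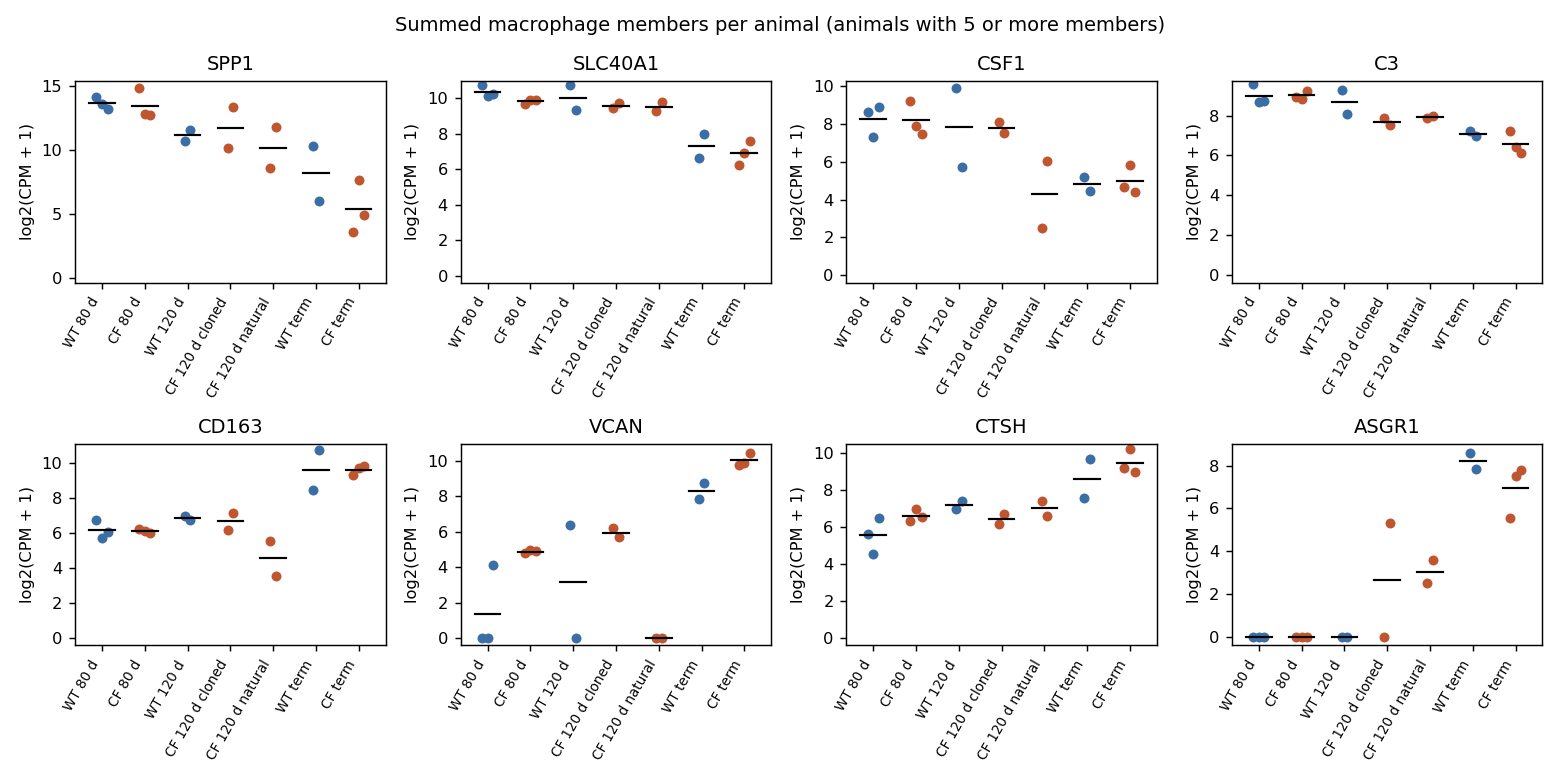
Levels of 8 genes in the summed macrophages of each of the 17 animals with 5 or more, as log2(CPM + 1), by group; points are animals and black lines are group means. SPP1 and SLC40A1 are high in both genotypes at 80 days and lower in the CF lambs at term, and CD163, VCAN, CTSH and ASGR1 are higher at term than at 80 days in both genotypes.

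A pair of iron genes moved in opposite directions. SLC40A1 (ferroportin), the only known exporter of iron from cells, fell from 822, 950 and 953 CPM at 80 days to 73.9, 119 and 191 CPM at term (-2.71 ± 0.31, adjusted p = 0.00328). SLC11A1, which moves iron and manganese out of the phagosome, rose from 2.97, 11.4 and 0 to 131, 67.9 and 98.7 CPM (4.55 ± 0.74, adjusted p = 0.0124). The other 9 of the 11 tested iron and heme genes were not called, among them HMOX1, the heme-degrading enzyme (-0.63), and FTH1, the ferritin heavy chain (0.75). Over all tested genes 1.48% were called higher and 1.22% lower, and the list median was 0.59.

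By count, lipid and matrix handling was the list with the most called genes among the macrophage lists, 5 of 18 tested, all higher. Over all tested genes 1.48% were called higher. The list had a median log2 change of 1.42 beside 0.00 over all tested genes. CD36, a fatty acid and lipoprotein receptor, rose from 104, 64.4 and 84.7 to 388, 488 and 707 CPM (2.78 ± 0.31, adjusted p = 0.00276). In the other kept barcodes of these animals CD36 went from a mean of 26.3 to 73.3 CPM. FN1 (fibronectin) rose from 107, 144 and 173 to 1127, 534 and 2217 CPM (3.37 ± 0.47, adjusted p = 0.00801). Neither gene overlapped between the ages, as 22.3% of all tested genes did not. PLIN2, which coats lipid droplets, rose from 29.7, 26.5 and 29.4 to 585, 122 and 112 CPM (3.69, adjusted p = 0.0416), and FABP5, a fatty acid carrier, from 397, 545 and 217 to 443, 2433 and 2198 CPM (2.16, adjusted p = 0.0498), where lamb 1 lay below fetus 2. FABP5 was called in only 6 of 18 alternatives. The tetraspanin CD9 was the fifth gene (2.72, adjusted p = 0.0133), but its mean in macrophages was below that in the other kept barcodes at both ages, at 44.7 against 184 CPM at 80 days and 256 against 303 CPM at term. TREM2, a lipid-sensing receptor on the same list, was not called (1.05, adjusted p = 0.118).

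On the monocyte list 4 of 11 tested genes rose and 7 were not called, against 1.48% of all tested genes called higher, with a list median of 1.48 beside 0.00 over all tested genes. VCAN, the proteoglycan versican, went from 26.7, 30.3 and 29.4 to 865, 950 and 1401 CPM (5.37 ± 0.35), with the smallest adjusted p of the genes described here, 1.86e-04. In the other kept barcodes VCAN averaged 167 CPM at 80 days and 42.7 CPM at term, so macrophages lay below the rest of the tissue at 80 days and above it at term. The calprotectin chains S100A8 and S100A9, best known from neutrophils and monocytes, were higher at term too. S100A8 was at 0 in the macrophages of the 3 CF fetuses at 80 days and at 123, 46.8 and 290 CPM in the lambs, at least 30.9-fold higher (adjusted p = 0.0196), while other kept barcodes averaged 29.7 CPM at 80 days and 34.7 CPM at term. S100A9 went from 104, 34.1 and 73.6 to 594, 150 and 829 CPM (3.07, adjusted p = 0.0479). RETN was the fourth (1.58, adjusted p = 0.0415), called in 8 of 18 alternatives.

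Other genes that rose include ADGRE1, which encodes the F4/80 antigen used to mark mouse macrophages. It was at 0, 3.79 and 0 CPM in the fetuses and at 57.5, 131 and 132 CPM in the lambs (6.24 ± 0.84, adjusted p = 0.00713), the only call among 23 phagocyte core genes. The lysosomal proteases CTSH and LGMN rose, CTSH from 80.1, 125 and 92.0 to 594, 1206 and 500 CPM (3.16 ± 0.42, adjusted p = 0.00713) and LGMN from 190, 189 and 147 to 378, 603 and 730 CPM (1.83 ± 0.28, adjusted p = 0.0104). Neither overlapped, as 22.3% of all tested genes did not. LGMN was the sole call among the 20 tested lysosome genes, whose median was 0.08. Over all tested genes 1.48% were called higher. By size of change the rule for named genes added the hexokinase HK3 (5.11, adjusted p = 0.00801), the membrane protein EMP1 (4.86, adjusted p = 0.0342), MS4A8 (3.99 ± 0.64, adjusted p = 0.0120) and the serine dehydratase SDS (7.28 ± 1.52, adjusted p = 0.0382), the last led by lamb 1 with 397 CPM against 38.2 and 102.

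CSF1, the growth factor on which macrophages depend, was at 590, 235 and 177 CPM at 80 days and at 24.6, 55.4 and 19.7 CPM at term (-3.10 ± 0.67, adjusted p = 0.0379). PDGFB, a mitogen for mesenchymal cells, was at 83.0, 60.6 and 66.3 CPM and then at 10.9, 15.3 and 23.0 CPM (-1.98, adjusted p = 0.0311). C3, the central complement protein, was at 492, 462 and 615 CPM and then at 148, 84.1 and 69.1 CPM (-2.07 ± 0.44, adjusted p = 0.0356). No lamb overlapped a fetus for these genes, as for 22.3% of all tested genes. They were 2 of 10 tested growth and repair factors and 1 of 11 tested complement genes, against 1.22% of all tested genes called lower. The interferon-induced chemokine CXCL10 fell from 14.8, 15.1 and 66.3 to 0, 1.91 and 3.29 CPM (-3.77, adjusted p = 0.0317), while the other kept barcodes of these animals went from a mean of 23.5 to 1.21 CPM. In CF fetuses 1 and 2 the macrophages, at 14.8 and 15.1 CPM, were below the other kept barcodes, at 23.8 and 16.3 CPM. CXCL10 was called in 10 of 18 alternatives and not with the minimum of 5 macrophages. Also lower was TLR1, a receptor for bacterial lipopeptides, from 56.4, 37.9 and 66.3 to 13.7, 11.5 and 13.2 CPM (-1.91, adjusted p = 0.0379), with TLR1 called in 6 of 18 alternatives.

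LIN28B, an RNA-binding protein of fetal hematopoietic cells, was at 53.4, 22.7 and 25.8 CPM at 80 days and at 0 in the lambs, at least 20.3-fold lower (adjusted p = 0.0408). PLEKHG5, a guanine nucleotide exchange factor, fell from 74.1, 56.8 and 58.9 to 0, 3.82 and 6.58 CPM (-3.95 ± 0.53, adjusted p = 0.00713). Genes named by size, as these were, had to separate the ages by the rule that named them. The remaining ones were PTPRCAP (-5.08, adjusted p = 0.0416), EGFL7 (-4.72, adjusted p = 0.0408), ENPP2, which makes lysophosphatidic acid (-4.33, adjusted p = 0.0299), the actin bundler FSCN1 (-3.95, adjusted p = 0.0154) and ZBTB10 (-3.05, adjusted p = 0.0158). LIN28B and EGFL7 were called in 6 of the 16 alternatives that tested them, C3, S100A9, HSPH1 and PTPRCAP in 9 of 18, and PDGFB in 10 of 18.

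Other macrophage lists had 0 or 1 call between the ages in CF. As 2.70% of all tested genes were called, such counts on short lists are near that share and do not set these lists apart. None of 14 antigen presentation genes passed (median -0.43; CD74, the invariant chain, -0.98 with adjusted p = 0.204), nor did any of 19 cell division genes (median 0.06; TOP2A -0.03) or 13 hypoxia and glycolysis genes (median 0.43). The inflammatory list had 1 call of 26 tested, CXCL10, which was also the 1 call of 18 interferon genes. Over all tested genes 1.22% were called lower. The chemokines CXCL8 (0.61, adjusted p = 0.673) and CCL3 (0.30, adjusted p = 0.790) and the cytokine IL1B (0.84, adjusted p = 0.518) were not called. Of the early response and heat shock genes 1 of 20 was called, the chaperone HSPH1, lower at term (-1.76, adjusted p = 0.0479), with a list median of -0.96, and HSPH1 in the other kept barcodes went from a mean of 812 to 180 CPM. CSF1R was at 1338, 1155 and 1189 CPM at 80 days and at 419, 458 and 497 CPM at term, and missed the threshold (-1.22 ± 0.31, adjusted p = 0.0641).

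Genes of other pancreatic cells moved beside these. Acinar genes made up 0.0490%, 0.249% and 0.464% of the UMIs of macrophages in CF fetuses 1 to 3 and 6.86%, 4.21% and 0.103% in CF lambs 1 to 3. On the acinar list 6 of 19 tested genes were higher at term, PRSS1, CLPS, SYCN, CTRC, CTRB1 and REG1A, against 1.48% of all tested genes, and the median was 4.79. The duct genes KRT7 and MMP7 were higher, and the glucagon gene GCG, the stromal gene POSTN and the T cell gene CD2 were lower. In all, 11 of the 175 called genes were on lists of other cell types, and 44 were lower in the macrophages of the higher group than in the other kept barcodes of the same animals. The part of these cells in the age differences was not tested.

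WT animals, which share no sample with the CF comparison, were compared between term and 80 days with the lower minimum of 5 macrophages, since 20 left 1 animal at each age. The fit held lambs 2 and 4 and fetuses 2, 3 and 4. Of 4082 genes, 36 were called (0.882%), 25 higher at term (0.612%) and 11 lower (0.269%). CD163 was at 109, 51.5 and 65.1 CPM in the fetuses and at 351 and 1717 CPM in the lambs (4.04 ± 0.53, edgeR adjusted p = 0.00161). VCAN was at 0, 0 and 16.3 and then at 231 and 440 CPM (5.44 ± 0.72, adjusted p = 0.00164), and CTSH at 48.4, 22.1 and 89.5 and then at 189 and 817 CPM (3.31 ± 0.59, adjusted p = 0.0158). These 3 genes rose in both genotypes. SLC40A1 fell from 1694, 1119 and 1183 to 98.2 and 251 CPM (-2.68 ± 0.48, adjusted p = 0.0158), and ASGR1 was at 0 in the fetuses and at 386 and 230 CPM in the lambs, at least 67.8-fold higher (adjusted p = 0.00493). TIMP1, an inhibitor of matrix proteases (3.87 ± 0.65, adjusted p = 0.0138), and LGMN (1.83 ± 0.38, adjusted p = 0.0313) rose, with CF values of 3.98 ± 0.62 and 1.83 ± 0.28.

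Among the other genes named in WT, the lectin subunit ASGR2 was at 0 in the fetuses and at 63.1 and 126 CPM in the lambs, at least 15.4-fold higher (adjusted p = 0.0353). FCGR1A, the high-affinity receptor for immunoglobulin G, rose from 36.3, 22.1 and 13.6 to 119 and 251 CPM (3.43, adjusted p = 0.0499), and the complement factor properdin, CFP, rose as well (2.48, adjusted p = 0.0353). MS4A8 (5.60, adjusted p = 0.0245), the fatty acid ligase ACSL5 (4.11, adjusted p = 0.0286) and CH25H, which makes 25-hydroxycholesterol (3.76, adjusted p = 0.0158), completed the genes that rose. NFKBID, an inhibitor of NF-kappaB in the nucleus, fell from 762, 692 and 491 to 63.1 and 147 CPM (-2.38 ± 0.43, adjusted p = 0.0158), and the repressor TGIF1 (-4.41, adjusted p = 0.0192), ANK2 (-4.57, adjusted p = 0.0353), RASGRP3 (-4.26, adjusted p = 0.0427) and FGD4 (-2.55, adjusted p = 0.0192) were lower too. SPP1 was at 18631, 12702 and 9502 CPM in the WT fetuses and at 1297 and 62.8 CPM in the lambs, which did not overlap, as 34.2% of all tested genes did not, but was not called (-3.69, adjusted p = 0.213). Acinar genes made up 11.4% of the macrophage UMIs of WT lamb 2 and 0.424% of those of lamb 4, against 0.0292% to 0.810% in the 3 fetuses, and 4 of 19 tested acinar genes were called higher. Leaving out 1 animal gave between 4 calls (without fetus 2) and 27 (without lamb 4), with 5, 6 and 8 without fetus 3, lamb 2 and fetus 4, and without both heterozygous fetuses 7 genes were called, 1 higher and 6 lower, of which 1 was among the 36. CFP, LGMN and ANK2 were called in 7 of the 16 alternatives each. ASGR2, FCGR1A and FGD4 were called in 8, and MS4A8, ACSL5, CH25H and RASGRP3 in 9.

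Side by side, 161 of the 175 genes called in CF were tested in WT, and 147 of them (91.3%) had the same direction, 80 of 88 higher and 67 of 73 lower, against 69.4% of all 4068 genes tested in both. The 18 genes called in both, 10.3% of the CF calls and 50.0% of the WT calls, all had the same direction. They were ASGR1, CD163, VCAN, CTSH, LGMN, TIMP1, MS4A8, SLC40A1, NFKBID, ANK2, APRT, SDF2L1, TMED3, the acinar genes PRSS1, CTRB1, CTRC and REG1A, and an unnamed locus. That locus was paired here with FOLR3, a name not among the symbols taken from the tables of the study. CD36 rose in CF and stood at 49.1 and 83.8 CPM in the WT lambs. The genotype difference in its age change was 3.02 ± 0.67 (log2, edgeR adjusted p = 0.679) in the fit at 20 macrophages, with 1 WT animal at each age, and 2.85 ± 0.61 (adjusted p = 0.495) at 5, and neither passed.

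**Figure D3:**
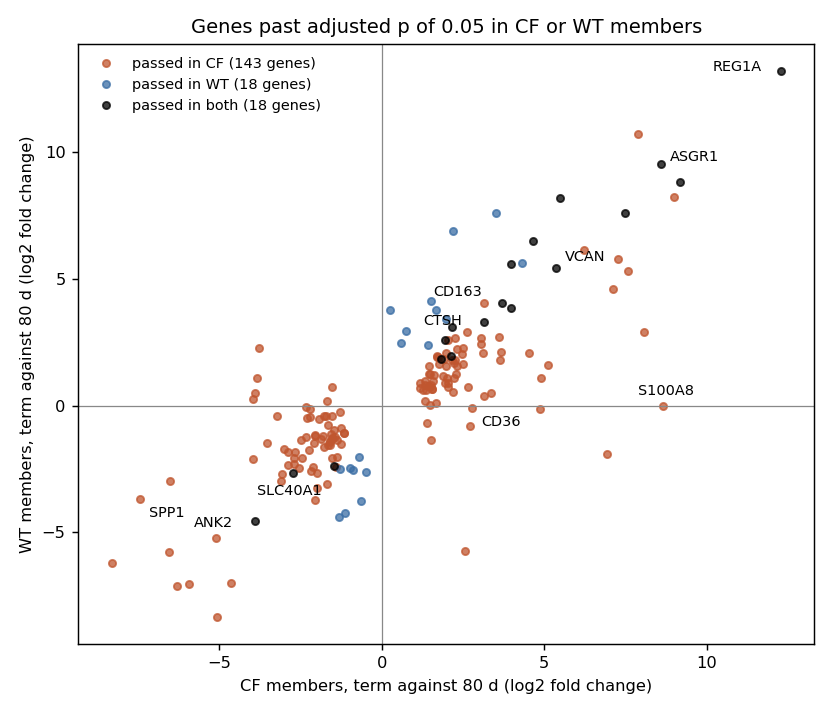
Log2 fold change from 80 days to term in CF macrophages (horizontal axis) and in WT macrophages (vertical axis) for genes tested in both and called in at least 1. Colours mark 143 genes called in CF alone, 18 in WT alone and 18 in both; the 18 called in both lie on the same side of 0 on both axes.

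The locus paired with FOLR3, a secreted folate-binding protein, was looked at after its values were seen, and reads from near copies such as FOLR2 may be split between them. In macrophages it was at 1081, 2238 and 1652 CPM in the CF lambs and at 5806 and 1968 CPM in the WT lambs, while the 12 animals at 80 and 120 days lay between 4.63 and 143 CPM. It was the only gene called of 4082 between WT term and WT 120 days (0.0245%; log2 fold change 7.34 ± 1.16, adjusted p = 0.0312). FOLR2 itself, the folate receptor of resident macrophages, ranged from 238 to 984 CPM at term and from 572 to 1088 CPM at 80 days, and was not called in CF (-0.62, adjusted p = 0.507). Between WT 120 and 80 days 1 gene of 4082 was called (0.0245%), CCDC117, a coiled-coil protein, which was higher at 120 days (3.91 ± 0.63, adjusted p = 0.0388). Both counts rested on single animals. The first was 5 without WT lamb 2 and 0 without WT fetus 3 at 120 days, and the second was 15 without WT fetus 1 at 120 days and 0 without any 1 of the others.

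CF lambs were also compared with the natural CF fetuses at 120 days, which are female, not cloned and littermates. The p-values here thus do not cover the spread between pregnancies at 120 days. The comparison uses the same 3 lambs as that with 80 days. Of 6475 genes 13 were called (0.201%), 6 higher at term (0.0927%) and 7 lower (0.108%). CD163 was at 46.3 and 10.9 CPM in fetuses 5 and 6 (4.83 ± 0.49, adjusted p = 0.00241), and VCAN was at 0 in both, at least 104-fold lower than in the lambs. FN1 (4.95 ± 0.65, adjusted p = 0.0116), CD36 (2.42 ± 0.37, adjusted p = 0.0304) and FKBP5, a cochaperone induced by glucocorticoids (3.43 ± 0.56, adjusted p = 0.0424), were higher in the lambs. FKBP5 was at 687, 1000 and 388 CPM against 69.4 and 98.1. In the other kept barcodes these genes were higher in the lambs too. Their means there were 61.1 against 6.88 CPM for FN1, 73.3 against 9.36 for CD36 and 164 against 17.0 for FKBP5.

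Of the antigen presentation genes 2 of 14 tested were called in this comparison, both lower at term, against 0.108% of all tested genes called lower. The class II chain gene DQA was at 1934 and 1035 CPM in fetuses 5 and 6 and at 79.3, 203 and 224 CPM in the lambs (-2.95 ± 0.38, adjusted p = 0.0116). HLA-DMA, which loads peptide on class II, was at 731 and 741 CPM and then at 112, 213 and 194 CPM (-1.84 ± 0.28, adjusted p = 0.0304). The list median was -1.68 beside 0.08 over all tested genes. Over 17 alternatives DQA was called in 13 and HLA-DMA in 9. SLC40A1 was lower again (-2.31 ± 0.33, adjusted p = 0.0221), as were CXCL10, from 287 and 218 CPM (-6.71 ± 0.69, adjusted p = 0.00241), PLEKHG5 (-3.75, adjusted p = 0.0424), CCNG2, a cyclin of resting cells (-2.99, adjusted p = 0.0116), and PFKFB2, a regulator of glycolysis (-2.52, adjusted p = 0.0316). With the minimum of 5 macrophages 7 of the 13 calls were kept, and those of DQA, HLA-DMA, FN1, CXCL10, PLEKHG5 and PFKFB2 were lost. PLEKHG5 was called in 9 of 17 alternatives, and SLC40A1 and PFKFB2 in 10. With 2 fetuses the count ranged from 2 to 34 when 1 animal was left out, 34 being that without the cloned lamb.

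To count cells with a transcript at equal depth, each macrophage with at least 2000 UMIs was thinned to 2000, which kept 91 of 107 in the CF fetuses at 80 days and 192 of 234 in the CF lambs. SPP1 was then detected in 46.4%, 26.9% and 21.6% of macrophages of CF fetuses 1 to 3 and in 5.41%, 8.85% and 2.38% of those of CF lambs 1 to 3. CD163 was detected in 0%, 15.4% and 5.41% and then in 51.4%, 65.5% and 57.1%. Neither overlapped, and each gave an exact permutation p of 0.100, the smallest that 3 against 3 animals allow (0.350 adjusted over 7 genes). Without thinning SPP1 was detected in 59.0%, 32.1% and 30.0% and then in 3.51%, 16.7% and 3.92%, and CD163 in 17.9%, 28.6% and 17.5% and then in 61.4%, 84.1% and 70.6%. Endothelial barcodes thinned in the same way, which should lack both, had SPP1 in at most 5.63% and CD163 in at most 0.403% in any animal, and SPP1 in CF lambs 1 and 3 lay below the highest of these, though above the 0.875% and 0.248% in the endothelial barcodes of the same lambs. MRC1, TIMD4, LYVE1, IL1B and TOP2A overlapped between the ages (exact permutation p of 0.200 or more).

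**Figure D4:**
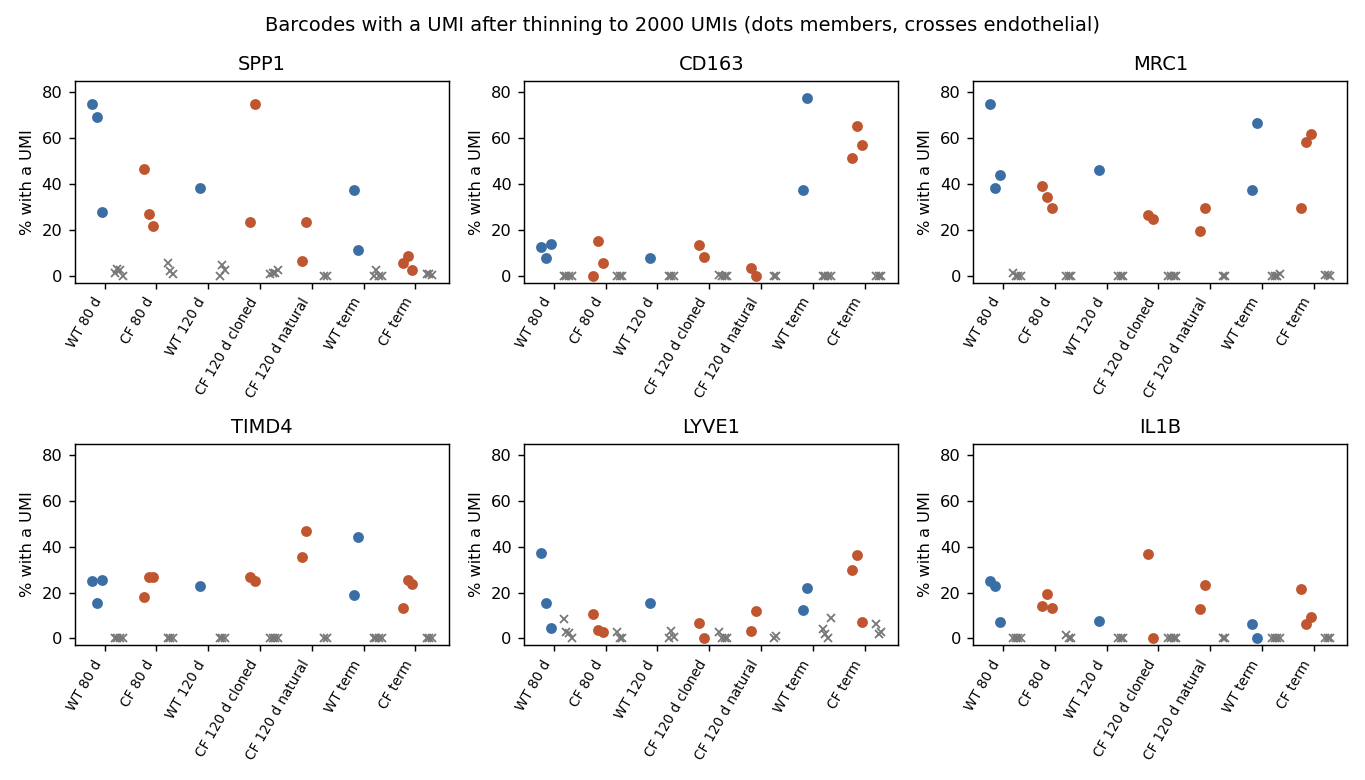
Percent of macrophages (dots) and of endothelial barcodes (crosses) with at least 1 UMI of 6 genes, after thinning each barcode to 2000 UMIs. Dots are animals with at least 8 such macrophages, and crosses are all animals. SPP1 was detected in 21.6% to 46.4% of macrophages of the CF fetuses at 80 days and 2.38% to 8.85% of those of the CF lambs, and CD163 in 0% to 15.4% and 51.4% to 65.5%.

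C1q was not detected in every barcode with phagocyte genes, and whether it was missed or absent there was not tested. A second set of 567 kept barcodes had at least 2 of TYROBP, FCER1G, CSF1R and AIF1, no UMI of a C1q gene and none of the exclusion genes, and in 16 animals both sets had 5 barcodes or more. Because C1q separates the sets, and TYROBP, FCER1G, CSF1R and AIF1 chose the second, their levels are set side by side with no test. Macrophages were higher in all 16 animals for FOLR2 (means of 657 and 0.242 CPM), for SPP1 (6535 and 8.49 CPM), for CSF1R (970 and 84.9 CPM), for CD163 (329 and 30.3 CPM) and for SLC40A1 (693 and 75.6 CPM). The C1q-negative set was higher in all 16 animals for FLT3, a receptor of dendritic cells and their precursors (5.18 CPM in macrophages and 63.1 in the negative set), and in 15 of 16 for S100A8 (28.7 and 2563 CPM) and THBS1 (103 and 374 CPM). CD74 differed little, with 4249 and 5444 CPM and macrophages higher in 5 of 16 animals. Dendritic cell genes made up 0.0790% of the UMIs of the C1q-negative set and 0.0235% of those of macrophages, so the set may hold other cells than phagocytes.

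**Figure D5:**
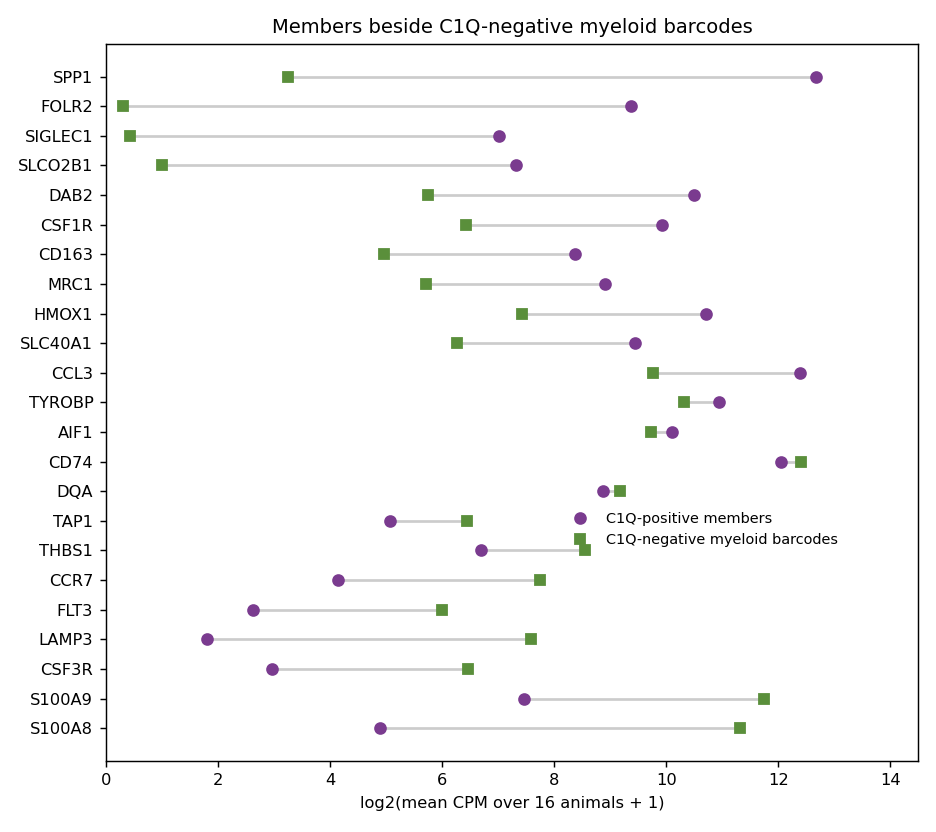
Mean level over 16 animals of 23 genes in macrophages and in barcodes with phagocyte genes but no C1q UMI (the C1q-negative set), as log2(mean CPM + 1). FOLR2, SPP1 and CSF1R lie far toward the macrophages and S100A8 and FLT3 toward the C1q-negative set, while CD74 lies close together; TYROBP and AIF1 do too, but helped to choose the C1q-negative set.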

How the data were processed

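The files hold raw UMI counts per gene and barcode as deposited by the authors, from 10x Genomics 3′ libraries aligned to the sheep genome (Oar_v4.0) and counted with Cell Ranger 3.1.0. Groups follow the labels. The members and gene lists were chosen with earlier results of these data known. Genes named only by LOC identifiers were given symbols from the tables of the study for 137 loci. The 87 ribosomal protein genes were left out of the counts summed per animal, and so of the tests and of CPM.

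Counts of macrophages were summed per animal, scaled by TMM, filtered with filterByExpr, which left 6475 of 24478 genes at the minimum of 20 and 4082 at that of 5, and tested with edgeR 4.0.16 (glmQLFit, all groups in 1 fit, adjusted p of at most 0.05). The minimum was 20 macrophages per animal, or 5 (chosen after seeing the data) where 20 left no fit. It was also 5 for WT term against 80 days, where 20 left 1 animal at each age. The summed counts ran from 24115 to 1046029 UMIs per animal with 5 macrophages or more. Genes were named by a rule: per direction, the 10 largest changes among called genes with a symbol, no overlap between animals, at least 20 CPM in the higher group, on no list of other cell types and not below the other kept barcodes, plus called members of the lists. CPM are counts over the summed UMIs of an animal's macrophages without the ribosomal protein genes, times 1e6. Percentages of UMIs from gene lists were taken over all UMIs. Shares were compared by exact permutation tests in scipy 1.17.1. Doublets were marked with Scrublet in scanpy 1.11.5 (0.8% per 1000 barcodes) and kept, with an alternative without them. Chi-square tests of summed counts over the 13 pairs of animals within a group with 5 macrophages or more gave at least 4.44 per degree of freedom, so none of these was a duplicate. The fit was tested on simulated data. For CF term against 80 days it recovered 57% of 4-fold and 82% of 8-fold changes. For WT term against 80 days it recovered 22.5% and 66%. Between 2.94% and 4.65% of the simulated calls were false. Genes not called may thus still differ, above all in WT. Alternatives were DESeq2 1.42.0, other filters, stricter and wider cell rules, other denominators, leaving out animals, and sex and replicate number as covariates.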

Additional observations from a re-analysis of the deposited data

How the results depend on the processing

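Animals of the WT groups had 1 to 56 macrophages where they had any. The fits at 20 macrophages or more held 1 of them at 80 days, labelled heterozygous, and 1 at term. At that minimum there was no fit for the 120-day, mean genotype, WT 120 against 80 days and WT term against 120 days comparisons, nor for 80 days without heterozygous fetuses. Of the main shares and counts under alternatives 213 kept their side of the threshold or their size, 71 counts or values moved, 10 lost and 1 gained a p under the threshold, and 8 turned direction. The cause of the changes below was not tested.

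Shares are given in percentage points with the exact permutation p. The CF minus WT difference at term had an unadjusted p under 0.05, but not with the PTPRC denominator (16.6, exact permutation p = 0.0571). Without the cloned lamb it was 1.91 (exact permutation p = 0.0667). With any 1 animal left out it ranged from 0.746 to 2.22 (exact permutation p from 0.0667 to 0.100). These p-values without an animal were the smallest possible, so none could be under 0.05. They are counted among the lost p-values above. The mean genotype difference was 1.53 on the log2 scale (exact permutation p = 0.0658) and ranged from 0.460 to 0.952 with 1 animal left out. WT term minus 120 days turned positive with barcodes thinned to 1000 UMIs (0.0570), with the PTPRC denominator (4.25), with the exclusion ignored (0.00430), and in leave-one-out (-0.149 to 0.0362, with 0.00142 without WT lamb 3). WT term minus 80 days was 1.79 with the PTPRC denominator, and -1.02 to -0.448 in leave-one-out, where its lowest p was 0.0286. CF term minus 80 days was -0.0708 over all deposited barcodes and -0.492 to 0.984 in leave-one-out. The other leave-one-out ranges were 0.214 to 0.789 at 80 days, 0.0149 to 0.279 at 120 days and -0.966 to -0.391 for WT 120 minus 80 days. The IL1B detection share, CF term minus 80 days, was 0.758 with macrophages thinned to 1000 UMIs.

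For counts of called genes, DESeq2 gave 10 at 80 days, 1 at term, 57 for CF term against natural 120 days, 1 at 120 days, 7 for the mean genotype effect, and for WT 14 (120 against 80 days), 38 (term against 120) and 75 (term against 80). With no filter on low counts the same comparisons gave 47, 129, 335, 47, 50, 63, 89 and 180, and CF term against 80 days 679. With all 3 C1q genes required, term gave 1, CF term against 80 days 79 and against natural 120 days 6. With phagocyte markers required as well these gave 1, 81 and 6, and WT 120 against 80 days 16. With the exclusion ignored the counts were 1 at 80 days, 498 for CF term against 80 days, and 0, 3 and 106 for the 3 WT steps. Sex as a covariate gave 9 at term, 28 for CF term against 80 days and 37 against natural 120 days. Within the groups of these fits sex differed only among the CF lambs. The sex-adjusted counts at term and against 80 days thus rest on cloned lamb 3, and that against natural 120 days on lambs 1 and 2. Without the cloned lamb CF term gave 116 against 80 days and 34 against natural 120 days. With 5 macrophages the counts were 3 at 80 days, 2 at term and 7 for CF term against natural 120 days. Among genes at least as high in macrophages as in other barcodes, 44 were called against natural 120 days, and 2 and 7 for WT 120 against 80 days and term against 120. Without heterozygous fetuses WT gave 0 (120 against 80 days) and 7 (term against 80, 1 of them among the 36). The replicate number as a block gave 1 at term, 4 against natural 120 days, 1 for the mean genotype effect, 2 for WT term against 120 days, 15 for WT term against 80 days and 161 for CF term against 80 days, of which 115 were called without the block. These animals share only a number, since deviations of same-numbered CF animals at 80 days and term correlated between -0.11 and 0.01 over 3 pairs. Leaving out 1 animal gave 46 to 345 for CF term against 80 days, 2 to 34 against natural 120 days, 0 to 3 at term, 0 to 1 for the mean effect, 0 to 15, 0 to 5 and 4 to 27 for the WT steps, and 0 at 80 and 120 days.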

Other observations

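Between CF and WT fetuses at 80 days no gene was called among animals with at least 20 macrophages, and 3 of 4082 were with at least 5, a minimum chosen after seeing the data, which brought 3 WT fetuses of 1 litter in place of 1 fetus. These were HSPA1A, the only call among the 19 tested early response and heat shock genes, and the chaperone genes BAG3 and DNAJA4, which were on no list. HSPA1A was at 12.1, 58.9 and 21.7 CPM in WT fetuses 2 to 4 and at 454, 636 and 239 CPM in CF fetuses 1 to 3, without overlap (log2 fold change 3.94 ± 0.57, edgeR adjusted p = 0.0101; over 14 settings the adjusted p ran from 1.79e-06 to 1.00 and 3 called it). BAG3, its cochaperone, was at 48.4, 36.8 and 86.8 CPM and at 3212, 1560 and 666 CPM (5.05 ± 0.82, adjusted p = 0.0211; range 7.57e-06 to 1.00, called in 4). DNAJA4 was the third gene (3.98 ± 0.72, adjusted p = 0.0477; range 2.08e-05 to 1.00, called in 3). The other kept barcodes of the same fetuses differed in the same direction, with means of 26.5 CPM in WT and 227 CPM in CF for HSPA1A and of 49.8 and 436 CPM for BAG3. At 120 days HSPA1A was at 481 and 246 CPM in the macrophages of cloned CF fetuses at 69.4 and 65.4 CPM in those of natural CF fetuses, and at 207 and 315 CPM in those of WT fetuses 1 and 3, which are not clones. At that age BAG3 was at 1819 and 1517 CPM in the cloned CF fetuses, at 384 and 469 CPM in the natural CF fetuses and at 82.9 and 1167 CPM in the WT fetuses. All CF fetuses at 80 days were clones, so genotype and cloning cannot be told apart at that age.

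At term with at least 5 macrophages, CD36 was called higher in CF, at 388, 488 and 707 CPM against 49.1 and 83.8 CPM in WT lambs 2 and 4 (2.92 ± 0.48, edgeR adjusted p = 0.0420). Over 15 settings the adjusted p ran from 7.30e-04 to 0.878 and 2 called it, and the other kept barcodes averaged 73.3 CPM in CF and 16.8 CPM in WT. CXCL10 was called lower in CF in the same fit (-8.50 ± 1.43, adjusted p = 0.0420; range 0.0420 to 0.994, called in 1). It rested on WT lamb 4, with 1801 CPM against 0 in WT lamb 2, and with at least 20 macrophages, where lamb 2 is the only WT animal, its log2 fold change was 2.50. These genes were looked at after their values were seen.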
